A study of Mus musculus with 14 samples.

Results

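The miRNAs described here are the 7 deposited names of the red-cell miRNAs miR-144, miR-451a and miR-486, chosen by name from the 1695 mouse miRNA names counted. They are mmu-miR-144-3p, mmu-miR-144-5p, mmu-miR-451a, mmu-miR-486a-5p, mmu-miR-486a-3p, mmu-miR-486b-5p and mmu-miR-486b-3p (written without mmu-, the prefix for mouse, from here on), and all 7 were present. They were measured by small-RNA sequencing of small extracellular vesicles, particles bounded by membrane that are shed by cells. Per the labels, the donors of the cells were female BALB/c mice of wild-type genotype, and the vesicles were shed by Ly6G-positive cells of their bone marrow, taken as primary neutrophils. One group of 7 libraries came from cells kept 48 h with the solvent DMSO. The other group of 7 came from cells kept 48 h with 10 µM 27-hydroxycholesterol (27HC), a cholesterol metabolite. The age of the mice and the number pooled per library are not given in the sources used here, and nothing says that the libraries came from separate animals, so that p-values measure the spread between these libraries.

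MicroRNAs (miRNAs) are short RNAs that are loaded into an Argonaute protein and repress messenger RNAs that match their seed, the bases 2 to 8. miR-144 and miR-451a are cut from one transcript that the factor GATA1 switches on in erythroid precursors, and miR-451a is among the most abundant miRNAs of mature red cells. Its hairpin is too short for the enzyme Dicer and is cut by Argonaute 2 itself. miR-486 lies in Ank1, the gene of the red-cell membrane protein ankyrin-1, and is made in erythroid cells and in muscle. In blood work the level of miR-451a against miR-23a-3p, a miRNA that red cells add little to, is a common index of red-cell RNA. Bone marrow holds many erythroid precursors, so these names bear on how much red-cell RNA came along with vesicles attributed to neutrophils.

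The mature sequences show whether these names share a seed. They are given 5′ to 3′ with the seed in capitals, for the 3 members that the RefSeq table (GRCm38.p6) holds, together with miR-451b, miR-223-3p (the neutrophil miRNA used for comparison) and miR-23a-3p.
miR-144-3p: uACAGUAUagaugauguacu
miR-144-5p: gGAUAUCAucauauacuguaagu
miR-451a: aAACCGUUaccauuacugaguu
miR-451b: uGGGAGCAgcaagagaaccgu
miR-223-3p: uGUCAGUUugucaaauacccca
miR-23a-3p: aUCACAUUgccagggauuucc
No 2 of these 6 share a seed, and 0 other mature names of the RefSeq table share the seed of miR-144-3p, miR-144-5p or miR-451a. Over bases 2 to 7 alone, miR-101a-3p matches miR-144-3p. For miR-486a and miR-486b the locus is named only.

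The hairpins show how differently the members of the first locus are cut. They are shown with the mature strands in capitals, Mir144 at chr11:78073005-78073070 and Mir451a at chr11:78073170-78073241, both on the plus strand of GRCm38.p6.
Mir144: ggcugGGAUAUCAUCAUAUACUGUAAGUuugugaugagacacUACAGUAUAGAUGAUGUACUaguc
Mir451a: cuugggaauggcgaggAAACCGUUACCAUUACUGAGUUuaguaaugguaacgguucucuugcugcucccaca
In Mir144 the mature strands lie on both arms, at bases 6 to 28 and 43 to 62 of 66. In Mir451a the single mature strand, at bases 17 to 38 of 72, runs from the 5′ arm into the loop. The hairpins are 99 bases apart and lie in no other GENCODE gene except that Mir451b covers the same stretch as Mir451a on the minus strand. The nearest coding genes are Flot2, 12570 bases before Mir144, and Eral1, 134 bases after Mir451a. Mir486 lies at chr8:23142555-23142682 on the plus strand, in an intron of Ank1 and of the antisense gene Gm15816. Mir3107, whose RefSeq synonym is mir-486b, lies inside it at chr8:23142573-23142662 on the minus strand.

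The miR-486a and miR-486b names were not separate measurements. Their 5p counts were identical in 14 of 14 libraries, at 2995 counts for each name in all. Their 3p counts were identical in 11 libraries and differed by at most 2 counts in the other 3. The 7 names therefore give 5 measurements, and miR-486a stands for both below.

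Levels are given as CPM, the usual unit of counts relative to the library size, here with TMM-scaled library sizes. Library totals ran from 112914 to 871189 counts, so that 1 count was worth 1.36 CPM in the deepest library and 8.20 CPM in 27HC replicate 7. Mature miRNAs are close in length (20 to 23 bases for the 3 members with a sequence), and levels of different names are compared without a correction for length. Adapters join to some miRNA ends more readily than to others, which limits such comparisons. On the first principal component of the tested names, replicates 5 to 7 (4.97 to 7.85) lay apart from replicates 1 to 4 (−11.89 to 0.24) in both groups. The labels name no such sets, and values within these sets are given where they bear on a result.

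miR-486a-5p, the main strand of miR-486, was the most abundant member. It ranged from 457.1 to 990.3 CPM in DMSO libraries, with a median of 646.2 CPM, and from 673.4 to 1006.5 CPM in 27HC libraries, with a median of 898.3 CPM. All 7 libraries with 27HC lay above the DMSO median, and the groups overlapped, with 2 of the 7 above the highest DMSO library. Counts ran from 57 to 474 per library. By mean CPM it ranked 76 of 1695 names. Its level was higher in replicates 1 to 4, at medians of 794.2 CPM (DMSO) and 949.5 CPM (27HC), than in replicates 5 to 7, at 574.5 CPM and 705.2 CPM.

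miR-486a-3p, the partner strand, ranged from 168.4 to 331.3 CPM in DMSO libraries, with a median of 244.8 CPM, and from 184.6 to 357.1 CPM in 27HC libraries, with a median of 306.0 CPM. It ranked 125. The 5p strand exceeded it in 14 of 14 libraries, with a median of 2.79 counts of 5p for each count of 3p and a range from 2.44 to 4.81 (0.5 added to each count). The highest ratio came from 27HC replicate 3, which stood apart from the other libraries of its group.

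miR-451a was scarce. Its counts ran from 2 to 26 per library, with medians of 9 in DMSO and 8 in 27HC libraries. In CPM it ranged from 16.04 to 35.4 in DMSO libraries, with a median of 30.3, and from 16.03 to 91.8 in 27HC libraries, with a median of 41.0. It ranked 260 of 1695. The highest value, in 27HC replicate 6, rested on 12 counts, with an exact 95% Poisson interval of 6.20 to 20.96 counts. With 27HC, 5 of the 7 libraries exceeded all those with DMSO, among them replicate 7 on 5 counts. The lowest, 27HC replicate 5, held 2 counts, as did DMSO replicate 5, so that the groups overlapped. Poisson intervals cover counting error only, since reads may be copies of one molecule.

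miR-144-3p, the main strand of miR-144, was as scarce, at 6.71 to 41.8 CPM in DMSO libraries, with a median of 26.9, and at 19.96 to 90.2 CPM in 27HC libraries, with a median of 41.1. Its 133 counts in all libraries equalled those of miR-451a. Between these neighbours in the order of levels, miR-144-3p was the higher in 6 of 14 libraries, so that they did not differ beyond their spread. miR-144-5p, its partner, was the lowest member. It ranged from 11.4 to 23.5 CPM in DMSO libraries, with a median of 16.8, and from 0 to 31.6 CPM in 27HC libraries, with a median of 8.20. The 2 libraries without a count were 27HC replicates 5 and 6, where a count of 0 allows up to 3 counts, or 24.0 and 22.95 CPM.

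**Figure D1:**
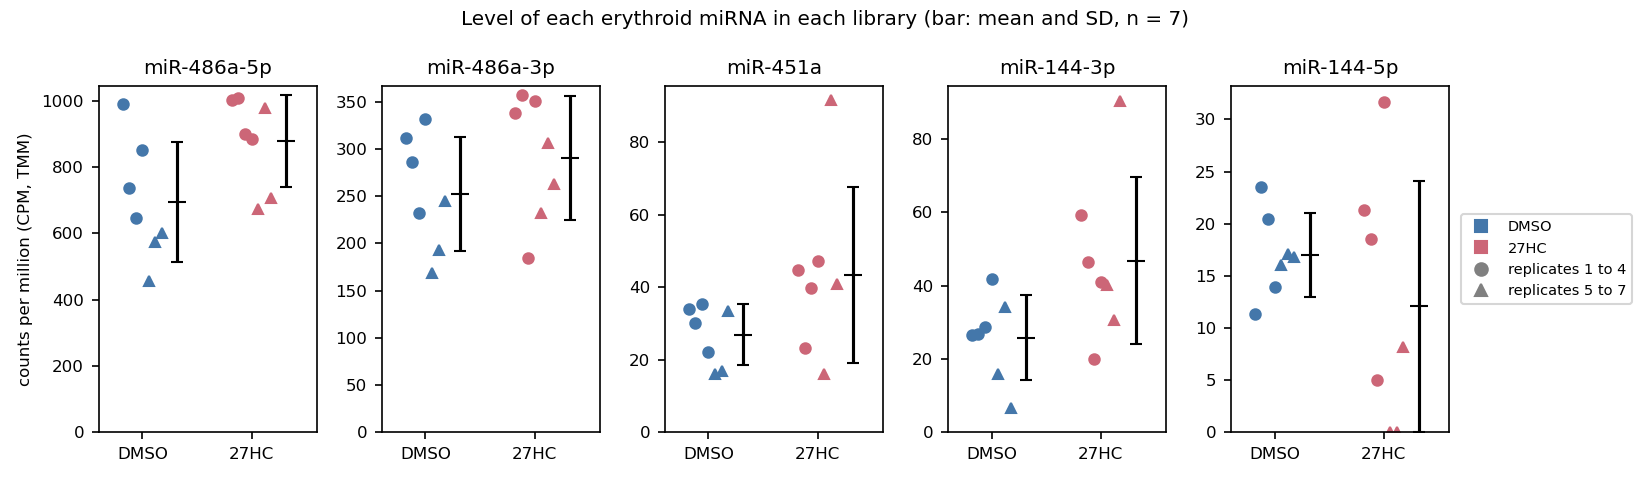
Level of the 5 separately measured erythroid miRNAs in each of the 14 libraries, as CPM on linear axes from 0, with circles for replicates 1 to 4, triangles for replicates 5 to 7 and bars for the mean and SD of 7 libraries. All 7 libraries with 27HC lie above the DMSO median for miR-486a-5p, and the groups overlap for each member.

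The spread of the scarce members in the DMSO group was about what counting gives. Against counts expected from the library totals, the chi-square per degree of freedom was 0.602 for miR-451a, 1.05 for miR-144-3p and 0.299 for miR-144-5p, where counting alone gives values near 1. In 27HC libraries it was 2.20, 2.09 and 2.06. miR-486a-5p varied more than counting gives in both groups, at 11.96 in DMSO and 4.51 in 27HC libraries.

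Set beside the neutrophil and myeloid names, the erythroid names held a small part of the counts. The 5 measurements together held from 0.0744% to 0.136% of the counts with DMSO and from 0.0963% to 0.152% with 27HC. Most of these counts were of miR-486, with means over all libraries of 0.0778% for miR-486a-5p and 0.0270% for miR-486a-3p. The means of miR-451a, miR-144-3p and miR-144-5p were 0.0035%, 0.0036% and 0.0015%. A list of 6 neutrophil and myeloid names (miR-223-3p, miR-223-5p, miR-142a-3p, miR-142a-5p, miR-146a-5p and miR-21a-5p) held from 13.6% to 21.1% in DMSO and from 13.7% to 15.4% in 27HC libraries. For each count of miR-451a there were between 1146 and 7774 counts of miR-223-3p, the miRNA most typical of neutrophils, with a median of 4885. In bulk vesicle RNA, fewer vesicles of a type and less RNA per vesicle cannot be told apart.

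Other lists of cell types were on the same scale as the erythroid names. The 4 liver and serum names held from 0.266% to 0.612% of counts over the 14 libraries, most of it miR-122-5p, the main liver miRNA, at 1895 to 4587 CPM. miR-122-5p exceeded miR-451a in every library, by a median of 88.7-fold. The 4 platelet and endothelial names held from 0.0829% to 0.222%, led by miR-199a-3p and miR-126a-3p. The 6 muscle names held from 0.0118% to 0.197%, and miR-1a-3p, the main muscle miRNA, ranged from 120.0 to 1844 CPM. The spread of miR-1a-3p was wider than that of miR-486a-5p, which muscle also makes. The 4 lymphoid names held from 0.149% to 0.242%. How much each of these sources added to miR-486 was not tested.

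**Figure D2:**
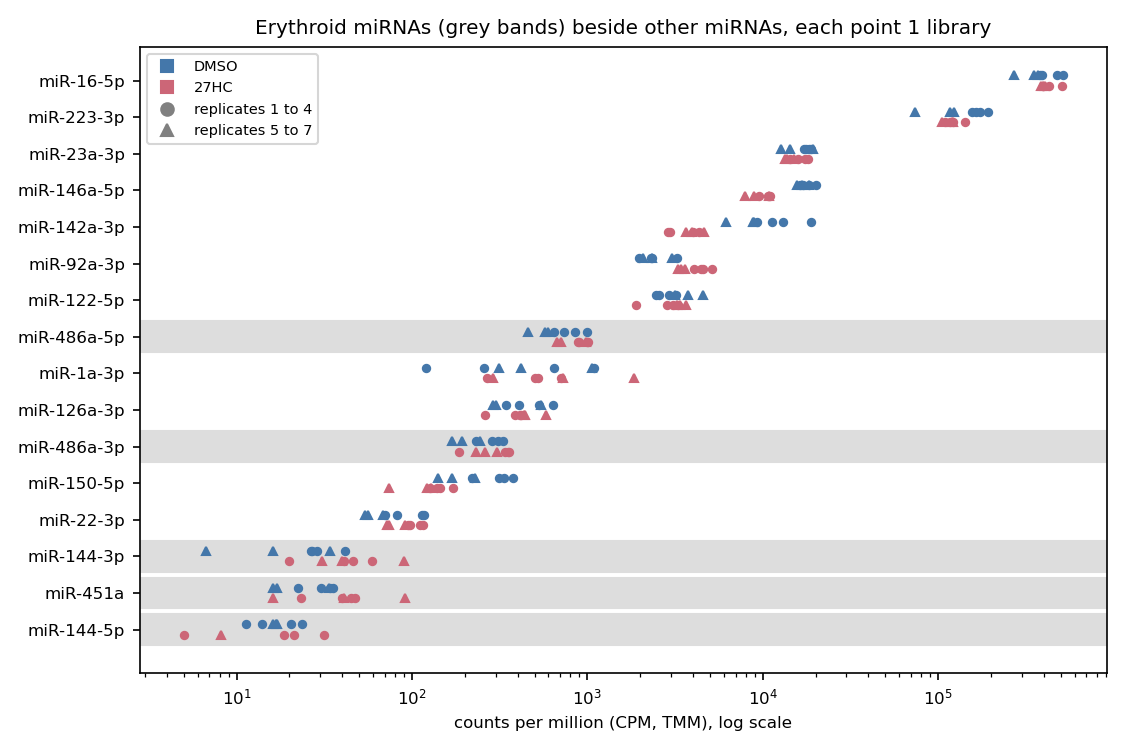
Level in each library of the erythroid miRNAs (grey bands) and of selected other miRNAs, as CPM on a log axis, with 1 point per library, circles for replicates 1 to 4 and triangles for replicates 5 to 7. miR-451a lies between 16.03 and 91.8 CPM, under miR-122-5p in every library, and the 2 libraries in which miR-144-5p had no count are not drawn.

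Other miRNAs known from red cells did not share one level. miR-16-5p, rich in red cells and in white cells alike, was the most abundant name of all, at 271687 to 515003 CPM. miR-92a-3p, from the miR-17-92 cluster, ranked 37 and miR-22-3p ranked 181. miR-96-5p, miR-182-5p and miR-183-5p, one cluster that reticulocytes hold, had 4, 7 and 4 counts over all 14 libraries. miR-451b, opposite Mir451a, had 2 counts. None of these last 4 names passed the filter on low counts.

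The question put by the design is whether 27HC changed these levels. edgeR's quasi-likelihood test was fitted on the 239 names that passed the filter, with Benjamini-Hochberg adjustment over all of them and calls at an adjusted p under 0.05. The filter passed 4 of the 7 members, the miR-486 names, and left out the 3 names of the locus of miR-144 and miR-451a. It called 0 of the 4 members, where 12.6% of the tested names were called, 3.77% as higher and 8.79% as lower with 27HC. At an edgeR unadjusted p under 0.05 there were also 0 of the 4, where 53 of the 239 tested names had one. DESeq2 and limma-voom called 0 of the 4 after adjustment, where they called 32 and 27 names in all. The groups did not overlap for 5.44% of tested names and for 0 of these 4.

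miR-486a-5p averaged 693.8 ± 180.8 CPM with DMSO and 878.3 ± 137.8 CPM with 27HC (SD, n = 7). The log2 fold change between them was 0.34 (SE 0.16, 95% interval −0.0096 to 0.69), with an edgeR unadjusted p of 0.0559 and an adjusted p of 0.231. Its unadjusted p was 0.0279 with DESeq2, 0.0364 with limma-voom and 0.0366 with RLE scaling in edgeR, with adjusted p of 0.136, 0.161 and 0.172. The difference did not pass any of these tests after adjustment, and its edgeR interval reaches from no change to a rise of 0.69. Without DMSO replicate 1, the highest DMSO library at 990.3 CPM, it was 0.51 with an edgeR adjusted p of 0.0431, which passes. It was 0.31 within replicates 1 to 4 (edgeR adjusted p 0.201) and 0.54 within replicates 5 to 7 (edgeR adjusted p 0.224). These sets differed from each other by 0.29 (SE 0.25, edgeR adjusted p 0.645), in a test that called 0% of names.

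miR-486a-3p averaged 252.4 ± 60.3 CPM with DMSO and 290.3 ± 65.8 CPM with 27HC (SD, n = 7). On the log2 scale they were 0.20 apart (SE 0.20, 95% interval −0.22 to 0.62, edgeR adjusted p 0.644). For both strands, values stood higher on average with 27HC, by less than the test needs. Without a filter on low counts, miR-486a-5p was at 0.23 and miR-486a-3p at 0.099. The median log2 fold change was 0.010 over the 239 names that passed the filter and −0.19 over the 1695 names of the fit without it. These medians are over different sets of names.

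The 3 scarce names were tested without the filter, a fit that called 1.59% of the 1695 names, 0.59% as higher and 1% as lower. miR-451a averaged 26.97 ± 8.34 CPM with DMSO and 43.5 ± 24.3 CPM with 27HC (SD, n = 7), and the log2 fold change in that fit was 0.50 (SE 0.48, 95% interval −0.44 to 1.44, edgeR adjusted p 0.633). miR-144-3p averaged 25.8 ± 11.5 CPM and 46.8 ± 22.7 CPM, with a log2 value of 0.69 (SE 0.48; edgeR adjusted p 0.579), and 6 of the 7 libraries with 27HC lay above the DMSO median. miR-144-5p averaged 17.02 ± 4.01 CPM and 12.1 ± 12.01 CPM, with a log2 value of −0.37 in that fit (SE 0.67, edgeR adjusted p 0.854). None of the 3 was called, and their intervals cover changes of more than 2-fold.

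The scale of that fit bears on these values. With the 3 names kept beside those that pass the filter, a fit that called 11.6% of 242 names, miR-451a was at 0.68 (edgeR adjusted p 0.229), miR-144-3p at 0.87 (edgeR unadjusted p 0.0288, adjusted p 0.145) and miR-144-5p at −0.17 (edgeR adjusted p 0.903). miR-144-3p was at 0.34 within replicates 1 to 4 and at 1.52 within replicates 5 to 7, where DMSO replicates 5 and 7 held 2 counts each. miR-144-5p was at 0.038 within replicates 1 to 4 and at −2.36 within replicates 5 to 7, where the libraries with 27HC held 0, 0 and 1 counts.

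**Figure D3:**
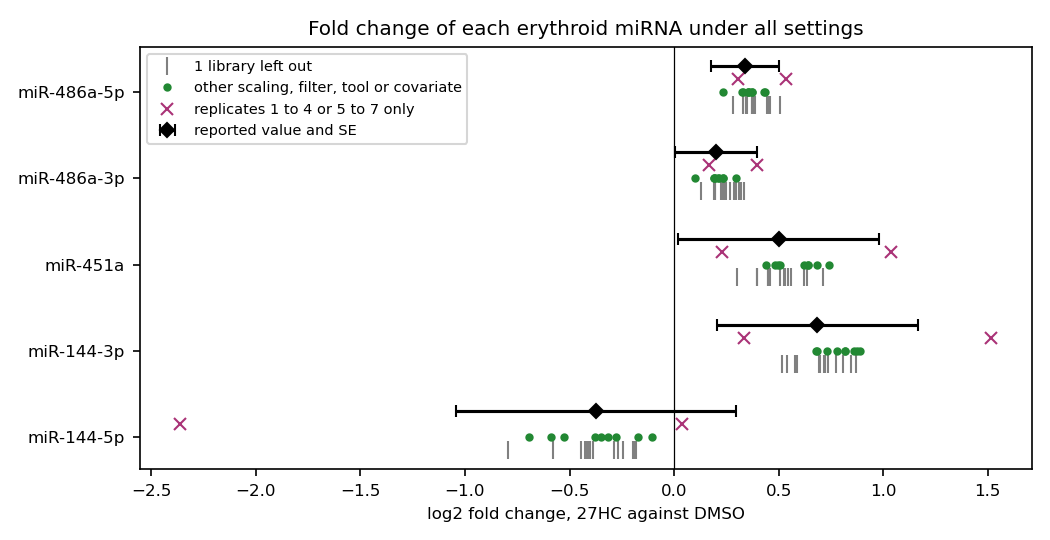
Log2 fold change of each erythroid miRNA, 27HC against DMSO, with the reported value and its SE (diamond) and the values under each alternative (ticks for 1 library left out, dots for other scalings, filters, tools and covariates, crosses for each set of replicates alone). All values for miR-486a-5p and miR-451a lie above 0, and miR-144-5p lies on both sides of 0.

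Ratios within a library need no scaling factor. In all, 7 ratios were tested with exact two-sided permutation (3432 assignments of libraries to groups), with p-values adjusted over the 7, and 0 of the 7 passed. The red-cell index, miR-451a over miR-23a-3p on the log2 scale, was −9.22 ± 0.25 in DMSO and −8.53 ± 0.81 in 27HC libraries (SD, n = 7). The groups were 0.69 apart (exact permutation p 0.0425, adjusted 0.0993), and 5 of the 7 libraries with 27HC exceeded the highest DMSO value of −8.89, while the other 2 lay among the DMSO values. Without 27HC replicate 5 the difference was 0.86 (exact permutation adjusted p 0.0459). In all libraries miR-451a was far below miR-23a-3p, with between 140.2 and 773 counts of miR-23a-3p for each count of miR-451a (0.5 added to each count).

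Against miR-223-3p, the neutrophil reference, miR-486a-5p was higher with 27HC by 0.57 on the log2 scale (exact permutation p 0.0175, adjusted 0.0612), from −7.66 ± 0.44 to −7.09 ± 0.31 (SD, n = 7). All 7 libraries with 27HC lay above the DMSO median and 3 above the highest DMSO library. In the fit across names miR-223-3p itself was at −0.26 (edgeR adjusted p 0.406) and miR-486a-5p at 0.34 (edgeR adjusted p 0.231). Neither was called, and the part of each in this ratio was not tested. miR-451a over miR-223-3p differed by 0.77 (exact permutation p 0.0647, adjusted 0.113). Without DMSO replicate 7, the highest of its group in this ratio, it differed by 0.97 (exact permutation adjusted p 0.0469), and miR-486a-5p over miR-223-3p by 0.69 (exact permutation adjusted p 0.0286). Without 27HC replicate 5 these differences were 0.95 and 0.64 (exact permutation adjusted p 0.0459 for each).

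Within the erythroid names, miR-451a over miR-486a-5p differed by 0.20 between the groups (exact permutation p 0.508), from 0.025 without 27HC replicate 6 to 0.35 without 27HC replicate 2. There were a median of 22.4 counts of miR-486a-5p for each count of miR-451a. The strand ratio of miR-486a differed by 0.16 (exact permutation p 0.240), and by 0.050 without 27HC replicate 3. miR-144-3p over miR-451a differed by 0.29 (exact permutation p 0.591), and by −0.026 without DMSO replicate 7. The strand ratio of miR-144, 3p over 5p, differed by 1.59, from 0.43 ± 0.87 to 2.02 ± 1.17 (SD, n = 7; exact permutation p 0.0140, adjusted 0.0612). It rested on counts of 0 to 15 for the 5p strand. It was 0.34 within replicates 1 to 4 (exact permutation p 0.4) and 3.27 within replicates 5 to 7 (exact permutation p 0.1, the smallest that 3 against 3 allow), and it passed without 27HC replicate 4 (1.87, exact permutation adjusted p 0.0204) or 27HC replicate 5 (1.35, exact permutation adjusted p 0.0459).

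**Figure D4:**
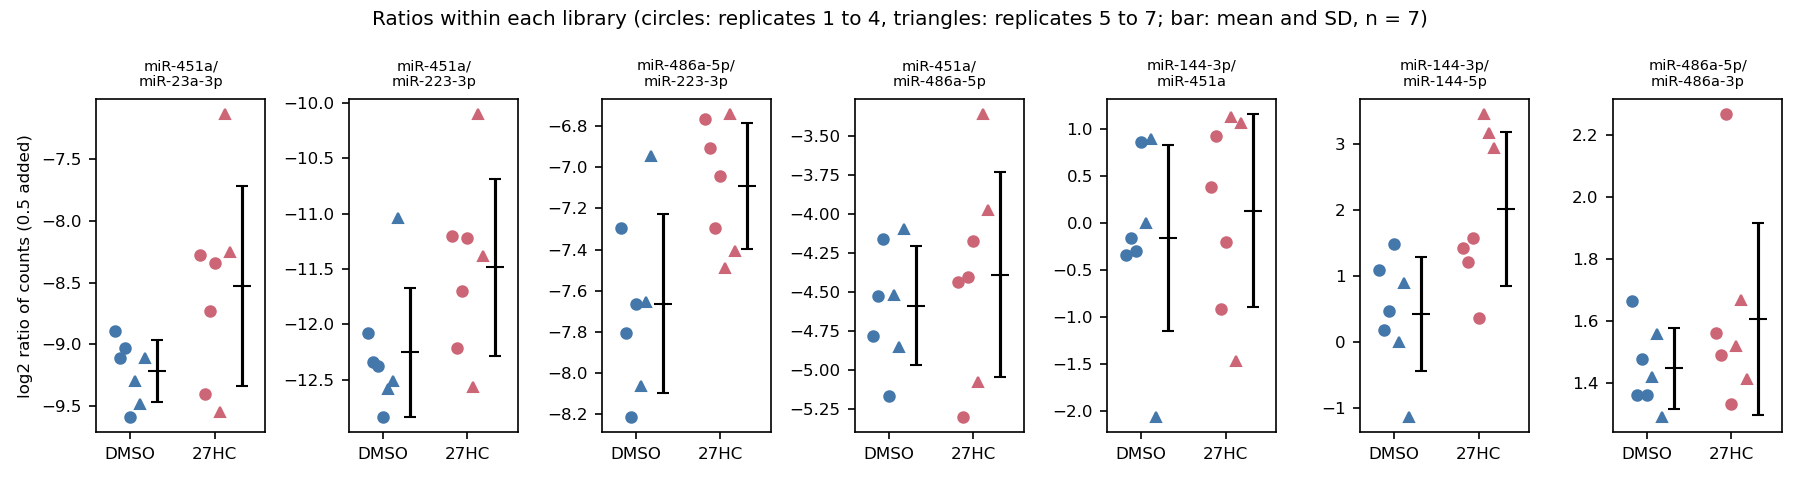
The 7 log2 ratios of counts in each library by treatment, each panel with its own linear axis, circles for replicates 1 to 4, triangles for replicates 5 to 7 and bars for the mean and SD of 7 libraries. In the first panel 5 libraries with 27HC lie above every DMSO library, and the groups overlap in all 7 panels.

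Whether the erythroid names moved together over libraries was examined within each set of replicates, over 5 pairs. Each set held libraries of both treatments, and treatment was not removed, so that r includes any difference between the groups. Between miR-451a and miR-486a-5p, Pearson's r of log2 CPM was 0.043 over the 8 libraries of replicates 1 to 4 (exact permutation p 0.925, adjusted 0.925; Spearman's rho 0.071, exact p 0.882). It was 0.85 over the 6 libraries of replicates 5 to 7 (exact permutation p 0.0333, adjusted 0.167; rho 0.66, exact p 0.175). Without the 2 libraries farthest from the median of miR-451a, r was 0.50 in the first set (without DMSO replicate 4 and 27HC replicate 2) and 0.21 in the second (without 27HC replicates 6 and 7), so that both values depend on those libraries. Between miR-451a and miR-144-3p, which share a transcript, r was −0.049 and 0.13 (exact permutation p 0.902 and 0.797). Without the same libraries it was 0.63 and −0.82, so that neither value was stable to them.

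The other 3 pairs set the members against miR-223-3p, the neutrophil reference, or miR-16-5p, rich in red cells and in white cells alike. Between miR-486a-5p and miR-223-3p r was −0.75 in replicates 1 to 4 (exact permutation p 0.0286, adjusted 0.143; rho −0.76, exact p 0.0368) and −0.48 without DMSO replicates 2 and 3. In the second set r was −0.093 (exact permutation p 0.778) and became 0.47 without DMSO replicate 5 and 27HC replicate 6. Between miR-451a and miR-223-3p r was −0.42 and −0.32, and between miR-451a and miR-16-5p −0.20 and 0.071 (exact permutation p from 0.292 to 0.894). Without the libraries named for miR-451a these were −0.84 and −0.9995, and −0.020 and −0.95, with only 4 libraries left in the second set. None of the 5 pairs passed after adjustment in either set.

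The names whose levels over the 14 libraries were most like those of miR-486a-5p are given as a description, by Pearson's r of log2 CPM among the tested names outside the erythroid list. They were miR-22-3p (0.87), miR-1306-5p (0.80), miR-484 (0.78), let-7d-3p (0.72) and miR-423-3p (0.69), where the median over tested names was −0.018. For miR-22-3p, one of the red-cell miRNAs listed above, r was 0.72 in the first set of replicates and 0.88 in the second. It averaged 80.2 ± 25.8 CPM with DMSO and 93.8 ± 16.6 CPM with 27HC (SD, n = 7), and the log2 fold change was 0.23 (edgeR adjusted p 0.644). All points share the library sizes used for scaling, and libraries of both treatments enter these r values with treatment not removed.

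**Figure D5:**
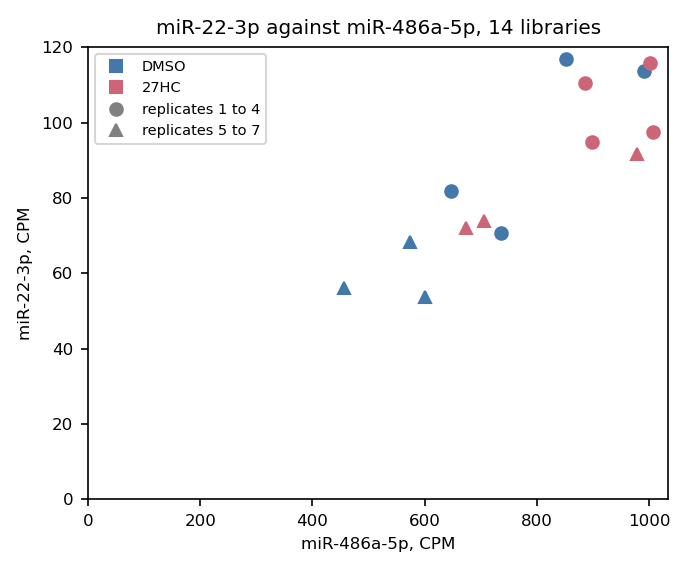
miR-22-3p against miR-486a-5p in the 14 libraries, both as CPM on linear axes from 0, with colours for treatment, circles for replicates 1 to 4 and triangles for replicates 5 to 7. Both names are low in the DMSO libraries of replicates 5 to 7, and Pearson's r of log2 CPM is 0.87.

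For miR-451a the most alike names were miR-32-5p (0.70), miR-7025-5p (0.55), miR-101a-3p (0.55), miR-149-3p (0.54) and miR-378d (0.53). For miR-32-5p r was −0.0013 in replicates 1 to 4 alone and 0.89 in replicates 5 to 7 alone, so that the likeness rests on the second set.

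Over all 239 tested names, 12.6% were called, 3.77% as higher and 8.79% as lower with 27HC. Of the lists fixed for comparison, 1 of 3 tested red-cell miRNAs outside the members was called, miR-92a-3p, which rose by 0.71 (SE 0.13) with an edgeR adjusted p of 0.00123. miR-16-5p was at 0.085 and was not called. Of 5 miRNAs known to fall as erythroid cells mature, 1 was called, miR-155-5p, at −1.48, and miR-221-3p, miR-222-3p, miR-24-3p and miR-223-3p were between −0.26 and 0.26. Of the 6 neutrophil and myeloid names, 3 were called and all 3 were lower with 27HC: miR-142a-3p, miR-142a-5p and miR-146a-5p. The ratios above use none of these 3 names. The names of this list that were not called, miR-223-3p, miR-223-5p and miR-21a-5p, were at −0.26, 0.17 and −0.020. Of 3 tested names each, 0 of the platelet, 0 of the muscle and 0 of the liver names were called, and of the 4 lymphoid names miR-150-5p was, at −0.97. Its partner strand miR-150-3p went the other way, at 1.22, and was not called (edgeR adjusted p 0.103). The median fold change of the 2 tested erythroid measurements was 0.27, beside 0.010 for all tested names.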

How the data were processed

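Per the labels' protocols, vesicle RNA was prepared with a miRNeasy Micro kit and turned into libraries with a QIAseq miRNA kit. The submitters' processing notes name R 4.1.2, edgeR, limma and the builds GRCm39 and mm39, without their roles. The aligner, the counting tool, the rule for reads that match several names and the use of molecular identifiers are not given in the sources used here. The authors deposited raw counts per mature miRNA name and library. All 14 libraries and 1695 names were matched to the labels, with 0 columns and 0 rows unmatched.

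The counts were tested with edgeR 4.0.16 in R 4.3.3 (TMM scaling, filterByExpr at its defaults, a count of at least 10 in enough libraries and a total of at least 15, treatment as the only term), which left 239 names with 99.4% of the counts. The step was tested on simulated data. Intervals of fold changes use the t distribution of that test. log2 CPM used a prior count of 2. Ratios had 0.5 added to each count. Alternatives covered RLE scaling, library totals, filters, DESeq2 1.42.0, limma-voom (limma 3.58.1), covariates, the replicate number as a block, and each library left out. The fit with the scarce names kept was added after seeing the data. The members, lists and tests were chosen with earlier results of these data known. The rule names all members, the listed miRNAs and the 5 names most correlated with miR-451a and with miR-486a-5p.

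Sequences and hairpin positions come from RefSeq on GRCm38.p6, and genes around them from GENCODE M21 on GRCm38. Since the table of counts names miRNAs without positions, the coordinates are the annotation's. Mature sequences were matched for 3 of the 7 members.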

Additional observations from a re-analysis of the deposited data

Results flagged for a closer look

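In 24 groups of 7 libraries, over the 5 members and the 7 ratios, 4 held a library whose gap to the nearest of the others was large for the range of its group, where chance gives about 1.2 (1 in 20). The groups share libraries and members and are not independent. miR-451a was highest in 27HC replicate 6, at 91.8 CPM from 12 counts, against 47.4 CPM in the next library. The log2 ratio of miR-451a to miR-223-3p was highest among DMSO libraries in replicate 7, at −11.04, against −12.08 in the next. The log2 ratio of miR-144-3p to miR-451a was lowest in the same library, at −2.07, against −0.34, on 2 counts of miR-144-3p and 10 of miR-451a. The log2 ratio of miR-486a-5p to miR-486a-3p was highest in 27HC replicate 3, at 2.27, against 1.67 in the next.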

How the results depend on the processing

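The number of called names was 30 in the main fit and ran from 21 to 34 with 1 library left out. It was 42 in replicates 1 to 4 alone (8 libraries) and 12 in replicates 5 to 7 alone (6 libraries). 0 members were called under each alternative except without DMSO replicate 1. That fit called 26 names in all, 2 of them members, the identical miR-486a-5p and miR-486b-5p. The count of members with 1 library left out therefore ran from 0 to 2. The log2 fold change of miR-486a-5p kept its direction under all alternatives run (0.23 to 0.54). So did those of miR-486a-3p (0.099 to 0.40), miR-451a (0.23 to 1.04) and miR-144-3p (0.34 to 1.52). That of miR-144-5p turned to 0.038 in replicates 1 to 4. With 1 library left out, the ratio differences ran from 0.46 to 0.86 for miR-451a over miR-23a-3p, from 0.54 to 0.97 for miR-451a over miR-223-3p, from 0.48 to 0.69 for miR-486a-5p over miR-223-3p, from 0.025 to 0.35 for miR-451a over miR-486a-5p, from 0.050 to 0.21 for miR-486a-5p over miR-486a-3p, from −0.026 to 0.56 for miR-144-3p over miR-451a and from 1.33 to 1.87 for miR-144-3p over miR-144-5p. The correlation of miR-451a with miR-486a-5p was 0.57 over all 14 libraries (permutation p 0.0316, adjusted 0.158) and 0.53 without 27HC replicates 5 and 6. That of miR-451a with miR-144-3p, 0.11 over all 14 libraries, was −0.049 in replicates 1 to 4. That of miR-451a with miR-16-5p, 0.065, was −0.064 on library totals and −0.20 in replicates 1 to 4. That of miR-486a-5p with miR-223-3p, 0.12, was −0.28 on library totals, −0.75 in replicates 1 to 4 and −0.093 in replicates 5 to 7. The cause of these changes was not tested. Same-numbered libraries correlated in their deviations at 0.069 to 0.60, all above 0 and below 0.1 for replicate 2. The library descriptions carry the same consecutive number pairs in both groups, and their meaning is not stated. These values do not decide whether the libraries are paired, and the main fit did not take them as pairs. With the replicate number as a block 37 names were called and 0 members, with miR-486a-5p at 0.36 (edgeR adjusted p 0.0741). Depth limits the miR-144 and miR-451a names, at 0 to 26 counts per library.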
